A study of Homo sapiens with 12 samples.

Results

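The 8 genes described here encode enzymes and binding proteins of N7-methylguanosine (m7G) and of the messenger RNA cap. They were chosen by gene ID among the 18569 Ensembl gene IDs of the deposited tables, with no measured value used, and all 8 were found. They are RNMT (ENSG00000101654) and CMTR1 (ENSG00000137200), which modify the cap, BUD23 (ENSG00000071462) and its partner TRMT112 (ENSG00000173113), which methylate ribosomal RNA, QKI (ENSG00000112531), a reader of internal m7G, NCBP1 (ENSG00000136937) and NCBP2 (ENSG00000114503), which bind the cap, and DCP2 (ENSG00000172795), which removes it. The tables hold gene IDs with no symbol and no coordinate, and the symbols follow the list of IDs by which the genes were chosen.

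AlkAniline-Seq finds m7G by a chemical cut of the RNA backbone at the modified base, and the ends it leaves are read as stacks at single positions. The knockdown cells were LNCaP-AI cells carrying shMETTL1, a hairpin RNA against the m7G methyltransferase METTL1, and their controls were LNCaP-AI cells carrying shscramble. Both groups were LNCaP-AI, a line of castration-resistant prostate cancer, and both were under androgen deprivation. Each group had 3 replicates, each with an AlkAniline-Seq and an input library, which makes 12 libraries. LNCaP-AI is a single cell line, and 1 hairpin against METTL1 is listed for the study. The paper describes the METTL1 knockdown of the sequenced cells as stable, and its methods describe transfection of shRNA in general terms. It does not say whether these cells were a pool or a clone. The question was whether the reads of these genes, at the level of the gene or of single positions, differed between shMETTL1 and shscramble cells. METTL1 itself and the markers of the labelled cell type were not looked up here, because the tables carry no symbols and no name table with Ensembl IDs was given.

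Messenger RNA carries m7G at its 5′ end as the cap, which RNMT makes by methylating the terminal guanosine and CMTR1 extends by methylating the ribose of the first transcribed nucleotide. NCBP1 and NCBP2 form the nuclear cap-binding complex, in which NCBP2 holds the cap and NCBP1 is the large scaffold, and DCP2 is the catalytic subunit of the decapping enzyme. m7G also occurs inside RNA. METTL1 with its partner WDR4 places it in tRNA and has been reported to place it in mRNA, BUD23 places it in 18S ribosomal RNA and is stabilised by TRMT112, and QKI proteins bind internal m7G in mRNA.

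The hairpin that defines the shMETTL1 cells is shown because every comparison turns on it. It is listed in the study's oligonucleotide table as a sequence of 2 parts of 23 bases. The capitals mark the 21 bases that are reverse complements of each other, the arms of the hairpin.
shMETTL1 part 1: GGAATGTAGTCCATCTAAACTcg
shMETTL1 part 2: aaAGTTTAGATGGACTACATTCC
No sequence of the shscramble control was used here.

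The AlkAniline-Seq libraries held 2512434, 2764417 and 2474464 reads in shMETTL1 cells and 1730427, 2624431 and 1421551 in shscramble cells. The input libraries held between 2783709 and 3258499. Library shscramble replicate 1 stood apart. Of the positions of the 8 genes with at least 20 AlkAniline-Seq reads in shscramble replicate 2, 33 of 33 also had a read in shscramble replicate 1, and of those in shscramble replicate 3, 25 of 25 did. Over all positions these shares were 98.4% and 99.6%, against 29.4% to 50.3% for the other ordered pairs of AlkAniline-Seq libraries. At the 16 positions of the 8 genes with at least 20 reads in shscramble replicate 2 and none in replicate 3, the reads of replicate 1 had a median of 9.52% of those in replicate 2. At the 11 positions with at least 20 in replicate 3 and none in replicate 2, that median was 18.2%. Whether shscramble replicate 1 holds reads of the other 2 libraries was not tested. If it does, shscramble has fewer than 3 independent samples in AlkAniline-Seq, and its SD with n = 3 and the p-values would understate the spread. Values without shscramble replicate 1 are therefore given for some of the genes and positions. The input library of shscramble replicate 2 also stood apart, with a TMM scaling factor of 0.665 against 1.01 to 1.19 for the other input libraries.

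The tables list 519 positions in the 8 genes, of which 262 had a read in an AlkAniline-Seq library and 407 in an input library. Most were sparse. Of the 262, 137 positions (52.3%) were read in exactly 1 of the 6 AlkAniline-Seq libraries, against 62.9% of all 404685 positions read in the series. Only 12 were read in all 6, and these were 10 positions of TRMT112, 1 of BUD23 and 1 of CMTR1. By group, 91 positions were read in shMETTL1 libraries only, 94 in shscramble libraries only and 77 in both. TRMT112 held 7202 of the 13812 AlkAniline-Seq reads and 7039 of the 13931 input reads of the 8 genes. These are counts that set the precision of each gene and, uncorrected for length, not levels that can be ranked between genes.

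At the level of the gene, none of the members tested was called between shMETTL1 and shscramble cells in AlkAniline-Seq. Of the 8 genes, 7 passed the filter on low counts, all but RNMT. The edgeR quasi-likelihood test called 0 of the 7 at an adjusted p under 0.05, where it called 1 of 11097 gene IDs, 0.00901%. At an unadjusted p under 0.05 it also counted 0 of 7, where 6.97% of all IDs passed, and DESeq2 called 0 of 7. The log2 fold changes of shMETTL1 over shscramble lay above 0 for 3 of the 7 and below 0 for 4, with a median of -0.06, beside 0.07 over all gene IDs tested. Library-scaled counts (CPM, normalised by TMM) of the groups overlapped for all 8 members, where they did not overlap for 14.5% of the IDs tested, 7.1% with shMETTL1 higher and 7.38% with shMETTL1 lower. Without shscramble replicate 1, 8 of 8 members passed the filter, RNMT through shMETTL1 libraries alone, and 0 were called. An unadjusted edgeR p under 0.05 was reached by RNMT when no filter was set, where 1806 of 17561 gene IDs reached it. Without shMETTL1 replicate 2 it was reached by RNMT and DCP2, beside 1044 of 12087 gene IDs, with 0 members called in either case. With limma on the fold over input, BUD23 stood at -0.62 (SE 0.28, limma unadjusted p = 0.045, adjusted p = 0.85), where 538 of 11097 gene IDs had an unadjusted p under 0.05. In RNA of whole cultures, fewer cells that express a gene and less RNA per cell cannot be told apart.

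**Figure D1:**
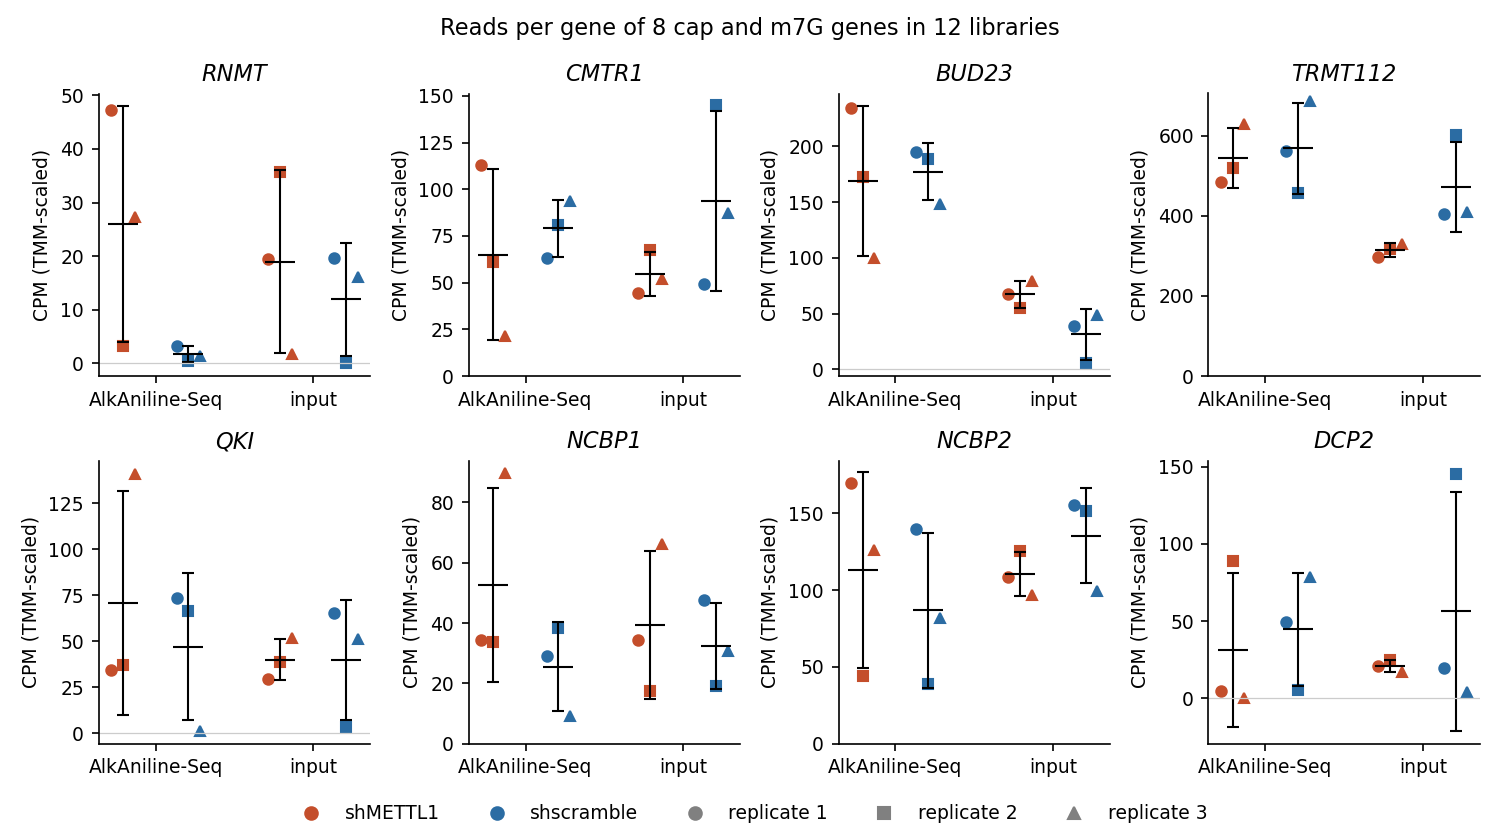
Reads per gene of the 8 members in CPM (linear axis, TMM-scaled), with the 3 shMETTL1 libraries left of the 3 shscramble libraries for AlkAniline-Seq and for input. Points are libraries, and the horizontal mark and bar are the mean and SD of n = 3. In AlkAniline-Seq the groups overlap for every gene, while in the input those of BUD23 (shMETTL1 higher) and TRMT112 (shMETTL1 lower) do not.

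Among the cap writers, RNMT had fewer than 10 reads in each shscramble library. Its AlkAniline-Seq reads numbered 121, 8 and 64 in shMETTL1 cells and 6, 1 and 2 in shscramble cells. Every shMETTL1 count exceeded every shscramble count, but once scaled the groups overlapped, at 47.2, 3.25 and 27.3 CPM in shMETTL1 cells and 3.30, 0.38 and 1.42 CPM in shscramble cells. The overlap rests on 3.25 CPM in shMETTL1 replicate 2 against 3.30 CPM in shscramble replicate 1, and without shscramble replicate 1 the groups do not overlap. The log2 fold change was then 4.83 (SE 2.44, edgeR adjusted p = 0.97). With no filter it was 4.01 (SE 1.91, edgeR adjusted p = 0.44), and without shMETTL1 replicate 2 it was 4.45 (SE 1.64, edgeR adjusted p = 0.48). In the fits with a library left out, RNMT passed the filter through shMETTL1 libraries alone, which fixes the direction. Those values are given as a description. The RNMT reads came from few positions. In shMETTL1 replicate 1, 66 and 55 of the 121 reads fell at 2 positions. A further 3 positions held 38, 15 and 6 reads in shMETTL1 replicate 3 and none in any other library. At the most read RNMT position the counts were 66, 0 and 0 in shMETTL1 cells and 1, 0 and 1 in shscramble cells. In the input RNMT had 75, 122 and 5 reads in shMETTL1 cells and 62, 0 and 52 in shscramble cells, a log2 fold change of 0.66 (SE 1.44).

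CMTR1 had 289, 150 and 50 AlkAniline-Seq reads in shMETTL1 cells and 115, 215 and 132 in shscramble cells. The 3 shMETTL1 libraries spread from 21.4 to 113 CPM, around the 63.2 to 93.7 CPM of the shscramble libraries. The log2 fold change was -0.28 (SE 0.78, edgeR adjusted p = 0.98). CMTR1 was 1 of 3 members with a position read in every AlkAniline-Seq library. That position had 60, 138 and 4 reads in shMETTL1 cells and 7, 2 and 31 in shscramble cells, with overlapping groups and a log2 fold change of 1.92 (SE 1.88). It was also the CMTR1 position with the most input reads, 51, 126 and 73 reads in shMETTL1 cells and 80, 14 and 144 in shscramble cells.

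BUD23, the 18S ribosomal RNA methyltransferase, had 600, 425 and 234 AlkAniline-Seq reads in shMETTL1 cells and 355, 504 and 209 in shscramble cells. Its level averaged 169 ± 67.2 CPM in shMETTL1 cells and 178 ± 25.4 CPM in shscramble cells (SD, n = 3 each), a log2 fold change of -0.07 (SE 0.46, edgeR adjusted p = 0.99). The most read position had 116, 140 and 1 reads in shMETTL1 cells and 122, 76 and 0 in shscramble cells. Replicate 3 of each group thus held almost no read there, and the groups overlapped. The second position, read in all 6 libraries, had 17, 221 and 13 reads in shMETTL1 cells and 57, 52 and 54 in shscramble cells, where 1 shMETTL1 library lay far above the other 5. The log2 fold changes were 0.30 (SE 1.74) at the first position and 0.44 (SE 1.41) at the second.

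TRMT112, the activating subunit shared by several methyltransferases, was the most densely read of the 8. It had 1240, 1280 and 1474 AlkAniline-Seq reads in shMETTL1 cells and 1021, 1221 and 966 in shscramble cells. Its level averaged 544 ± 75.9 CPM in shMETTL1 cells and 568 ± 114 CPM in shscramble cells (SD, n = 3 each). The log2 fold change of -0.06 (SE 0.30, edgeR adjusted p = 0.99) had the smallest error among the members tested. The coefficient of variation between replicates was 14% in shMETTL1 cells and 20.1% in shscramble cells, and for DCP2, among the more sparsely read genes, it was 159% in shMETTL1 cells and 82.5% in shscramble cells.

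QKI had 88, 91 and 330 AlkAniline-Seq reads in shMETTL1 cells and 134, 177 and 2 in shscramble cells. The 3 shscramble libraries spread from 1.42 to 73.7 CPM, and the groups overlapped. The log2 fold change was 0.58 (SE 1.08, edgeR adjusted p = 0.97). Single libraries supplied single positions. In shMETTL1 replicate 3, 111 and 97 reads fell at positions read in no other AlkAniline-Seq library, 88 reads fell at a position read only in shMETTL1 replicate 2, and 105 reads fell at a position of shscramble replicate 1 that had at most 1 read in any other library. The most read QKI position had 1, 0 and 78 AlkAniline-Seq reads in shMETTL1 cells and 8, 51 and 1 in shscramble cells. It was the 1 QKI position read in all 6 input libraries, with 34, 72 and 111 input reads in shMETTL1 cells and 64, 2 and 49 in shscramble cells, and in each input library its count equalled its coverage.

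The cap-binding pair differed in how densely they were read. NCBP1 had 88, 83 and 210 AlkAniline-Seq reads in shMETTL1 cells and 53, 102 and 13 in shscramble cells, a log2 fold change of 1.04 (SE 1.10, edgeR adjusted p = 0.94). In shMETTL1 cells a single position supplied 90.9% of the NCBP1 reads in replicate 1, 94.0% in replicate 2 and 48.1% in replicate 3, and it was a different position each time. Those positions held 80, 78 and 101 reads and none in any other AlkAniline-Seq library.

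NCBP2 had 435, 108 and 295 AlkAniline-Seq reads in shMETTL1 cells and 254, 104 and 115 in shscramble cells. It differed by 0.38 on the log2 scale (SE 0.68, edgeR adjusted p = 0.97). With 1 library left out the value ran from 0.0041 (SE 0.82) to 0.90 (SE 0.88), and the highest came without shscramble replicate 1. Its most read position had 74, 8 and 107 reads in shMETTL1 cells and 8, 0 and 0 in shscramble cells. The lowest shMETTL1 count equalled the highest shscramble count, and the log2 fold change was 4.21 (SE 2.37, edgeR adjusted p = 0.83). That tie is with shscramble replicate 1, and without it the value was 8.92 (SE 4.10, edgeR adjusted p = 0.64), a fitted value against libraries with 0 reads. The position then passed the filter through shMETTL1 libraries alone, which fixes the direction, so this value is a description. The other values with 1 library left out ran from 3.63 to 4.83. Its position ranked 3 had 53, 86 and 0 reads in shMETTL1 cells and 8, 0 and 0 in shscramble cells.

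DCP2 varied most between the shMETTL1 replicates. It had 12, 219 and 1 AlkAniline-Seq reads in shMETTL1 cells and 90, 15 and 111 in shscramble cells, and the libraries of each group spanned more than the difference between the groups. The log2 fold change was -0.51 (SE 1.46, edgeR adjusted p = 0.98), and without shMETTL1 replicate 2 it was -4.07 (SE 1.74, edgeR adjusted p = 0.53). The most read position had 127 reads in shMETTL1 replicate 2 and none in the other 5 libraries, and the second had 82 reads in that library and 1 in shMETTL1 replicate 1.

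**Figure D2:**
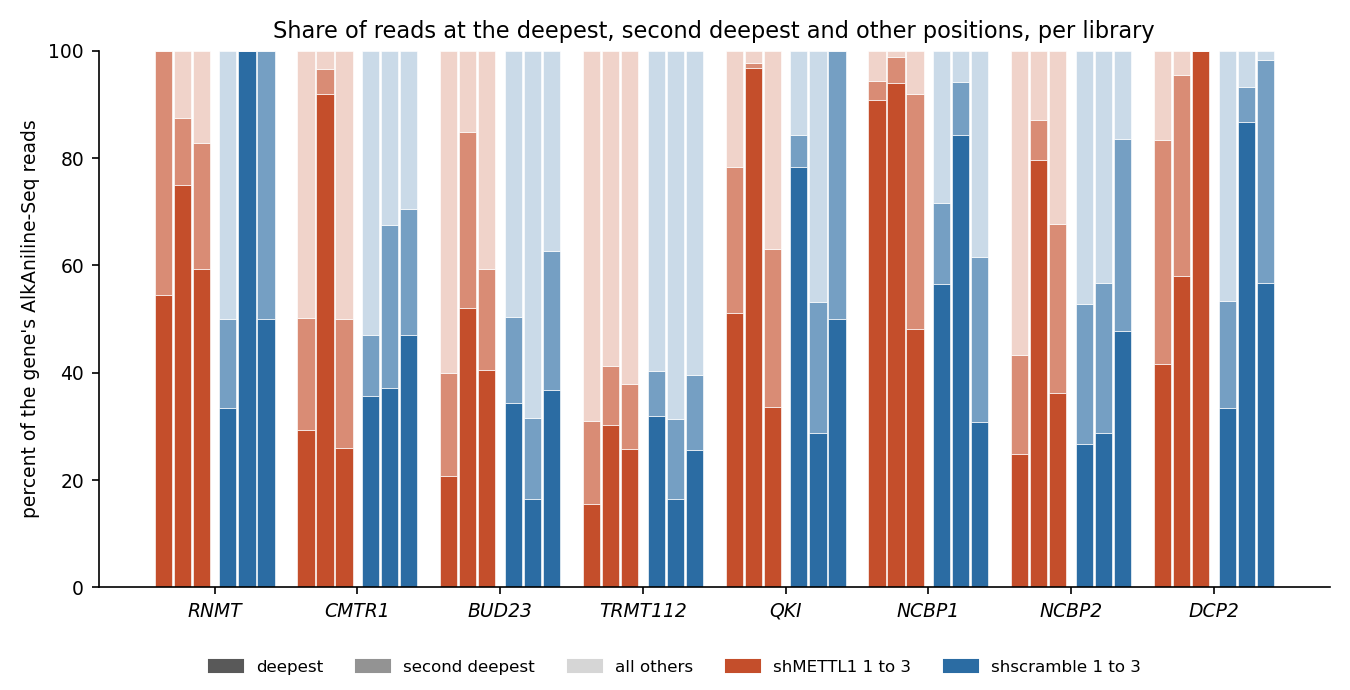
Share of each gene's AlkAniline-Seq reads (percent, axis from 0 to 100) that fell at its deepest position, its second deepest position and all others, for shMETTL1 replicates 1 to 3 left of shscramble replicates 1 to 3. Dark segments are the deepest position of that library. The deepest position held 15.6% to 31.9% of TRMT112 reads in every library, and over 90% of NCBP1 reads in shMETTL1 replicates 1 and 2.

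The genes also differed in how their reads were stacked. At TRMT112, 0% to 4.11% of AlkAniline-Seq reads per library lay at positions where every covering read ended, that is where count and coverage were equal. At QKI that share was 98.9%, 100% and 100% in shMETTL1 cells and 86.6%, 58.2% and 100% in shscramble cells. At NCBP1 it was 100%, 100% and 98.6% in shMETTL1 cells and 62.3%, 13.7% and 92.3% in shscramble cells. At RNMT it was at least 96.9% in every library. The other 4 members spread widely, from 0% to 50% at DCP2, 1.36% to 87.0% at NCBP2, 3.29% to 87.1% at BUD23 and 6.67% to 70.4% at CMTR1. DCP2, NCBP2 and BUD23 thus each reached into the range of TRMT112. No test was made of these shares.

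The count as a share of the coverage, summed over the positions of a gene, weights the deposited fraction of each position by its coverage. For TRMT112 it was 3.31%, 3.42% and 4.16% in shMETTL1 cells and 4.30%, 3.55% and 3.57% in shscramble cells, a difference of the means of -0.18 percentage points (exact two-sided permutation test, p = 0.5). For BUD23 it was 7.42%, 10.2% and 6.78% in shMETTL1 cells and 7.20%, 10.3% and 11.8% in shscramble cells (exact two-sided permutation test, p = 0.4). The groups overlapped for all 8 members, with p between 0.3 and 0.8 in these tests, where 12.1% of all gene IDs covered in every AlkAniline-Seq library did not overlap. With 3 libraries against 3 the smallest p such a test can give is 0.1.

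At single positions, 21 positions of the members passed the filter and the edgeR test called 0 of them at an adjusted p under 0.05, where it called 0% of 13973 positions. An unadjusted p under 0.05 was reached by 2 of the 21, beside 8.19% of all positions tested, and DESeq2 called 1, where it called 4.96% of all positions. Both positions lie in TRMT112 and ranked 13 and 17 by reads within the gene. They were chosen for description after their values were seen. Both passed the filter through the shscramble libraries alone, so that positions like them had to differ to be tested, and their tests are given as a description. Position 13 had 2, 0 and 1 AlkAniline-Seq reads in shMETTL1 cells and 33, 24 and 49 in shscramble cells. Each shscramble library lay above each shMETTL1 library.

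The coverage of TRMT112 position 13 was 995, 670 and 521 reads in shMETTL1 cells and 379, 460 and 442 in shscramble cells, so the count was 0.20%, 0% and 0.19% of coverage in shMETTL1 cells and 8.71%, 5.22% and 11.1% in shscramble cells. The log2 fold change of the reads was -5.25 (SE 2.22, edgeR adjusted p = 0.49, DESeq2 adjusted p = 0.049). Without shscramble replicate 1 it was -5.40 (SE 3.35, edgeR adjusted p = 0.76). In the input the order was different, with 34, 51 and 0 reads in shMETTL1 cells and 1, 0 and 3 in shscramble cells, and those groups overlapped.

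TRMT112 position 17 had 0, 1 and 0 AlkAniline-Seq reads in shMETTL1 cells and 27, 48 and 11 in shscramble cells. Its coverage was 53, 1 and 0 reads in shMETTL1 cells and 27, 48 and 11 in shscramble cells, so that 2 of the 3 shMETTL1 libraries hardly covered it. On the log2 scale the difference was -5.96 (SE 2.12, edgeR adjusted p = 0.36, DESeq2 adjusted p = 0.089). Without shscramble replicate 1 the value was -6.01 (SE 3.18, edgeR adjusted p = 0.64). The input read this position in all 6 libraries, at 20, 8 and 23 reads in shMETTL1 cells and 39, 3 and 32 in shscramble cells.

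Without shscramble replicate 3, edgeR called 4 of 36 positions of the members, where it called 5644 of all 29677 tested, 19%. They are given with reads in shscramble replicates 1 and 2, and had none in any other AlkAniline-Seq library. TRMT112 position 21 had 21 and 53 reads, BUD23 position 10 had 7 and 83, CMTR1 position 6 had 7 and 58, and QKI position 10 had 7 and 16. With no read in any shMETTL1 library they entered the test through shscramble alone, which fixes their direction. Replicate 3 held 0 reads at each, and with all 6 libraries none of the 4 passed the filter. The sharing of positions between shscramble replicates 1 and 2 given above touches each of them, and its part in these calls was not tested.

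The 3 most read TRMT112 positions showed no such separation. The first had 193, 18 and 381 reads in shMETTL1 cells and 326, 105 and 248 in shscramble cells, a log2 fold change of -0.50 (SE 0.97). The second had 77, 387 and 94 reads in shMETTL1 cells and 85, 68 and 51 in shscramble cells, and the value was 1.29 (SE 1.0). Position 3 had 192, 5 and 177 reads in shMETTL1 cells and 44, 202 and 134 in shscramble cells, and the value was -0.11 (SE 1.16). In shMETTL1 replicate 2 the second position held 30.2% of the gene's reads while positions 1 and 3 held 18 and 5 reads, so that a steady total for TRMT112 was made up of different positions from library to library.

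**Figure D3:**
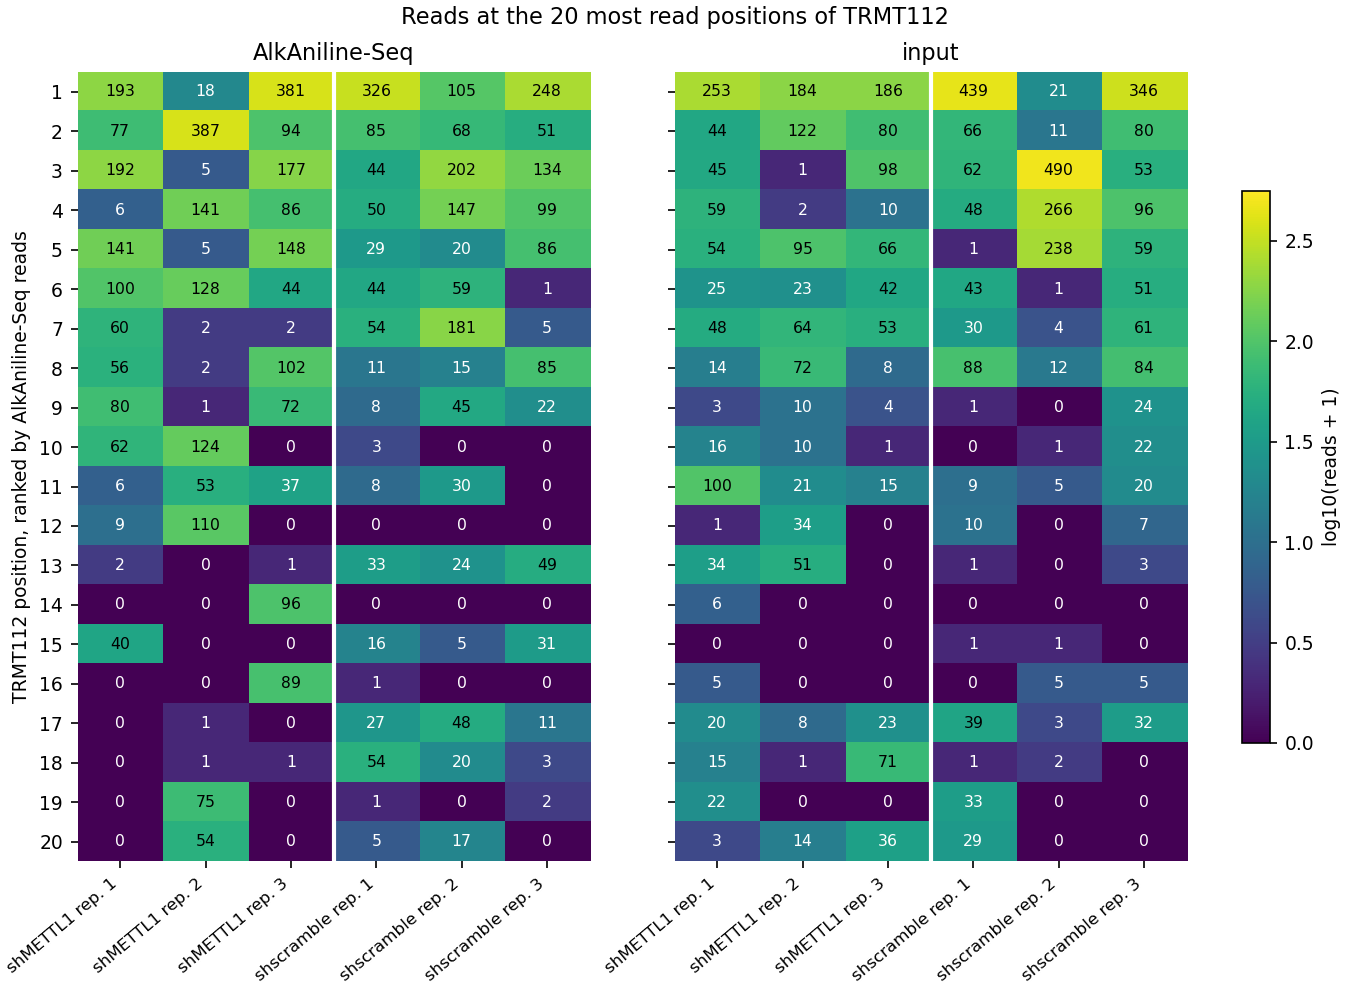
Reads at the 20 most read positions of TRMT112 (rows, ranked by AlkAniline-Seq reads) in the 6 AlkAniline-Seq libraries and the 6 input libraries, with shMETTL1 left of shscramble. Numbers are reads and colour is log10 of reads plus 1. Position 13 has 2, 0 and 1 reads in shMETTL1 cells and 33, 24 and 49 in shscramble cells, while position 1 is high and low in both groups.

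In the input libraries all 8 members passed the filter. The edgeR test called 0 of them, where it called 0% of 11740 gene IDs, and 0 of 8 reached an unadjusted p under 0.05, beside 6.26% of all IDs. DESeq2 also called 0. The groups did not overlap for 2 members, beside 13.5% of all IDs tested. BUD23 input levels were 67.5, 55.4 and 79.0 CPM in shMETTL1 cells and 39.3, 5.40 and 49.2 CPM in shscramble cells, a log2 fold change of 1.10 (SE 0.88, edgeR adjusted p = 0.88), and 7.64% of all IDs had every shMETTL1 library higher in this way. The lowest value came from shscramble replicate 2, the input library with the low scaling factor, where BUD23 had 11 reads. Without it the log2 fold change was 0.60 (SE 0.49).

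TRMT112 input levels were 297, 318 and 330 CPM in shMETTL1 cells and 405, 600 and 409 CPM in shscramble cells, a log2 fold change of -0.58 (SE 0.35, edgeR adjusted p = 0.82), and 5.84% of all IDs had every shMETTL1 library lower. Without shscramble replicate 2 it was -0.37 (SE 0.25). The raw input counts of TRMT112 were 1144, 1085 and 998 in shMETTL1 cells and 1277, 1222 and 1313 in shscramble cells, so here the groups also stood apart before scaling. As a share of coverage the TRMT112 input reads did overlap, at 3.32% ± 0.50 in shMETTL1 cells and 3.17% ± 0.08 in shscramble cells (SD, n = 3 each). The BUD23 input share was 11.1% ± 0.10 in shMETTL1 cells and 5.66% ± 4.90 in shscramble cells (SD, n = 3 each), with no overlap and the smallest p the exact permutation test allows, 0.1, where 10.5% of all gene IDs covered in every input library did not overlap. Over positions with a coverage of at least 10 the BUD23 groups did overlap, at 9.07%, 11.1% and 10.7% in shMETTL1 cells and 9.65%, 0.04% and 5.74% in shscramble cells (exact permutation test, p = 0.2). By the mean over covered positions they did not, at 29.8%, 18.4% and 21.6% in shMETTL1 cells and 17.4%, 18.1% and 13.6% in shscramble cells (exact permutation test, p = 0.1). How many of all gene IDs stood apart by that mean was not computed.

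The other 6 members overlapped in the input. DCP2 had 81, 84 and 51 input reads in shMETTL1 cells and 61, 296 and 14 in shscramble cells, where 92.2% of the 296 reads lay at 1 position. Its log2 fold change of -1.43 (SE 1.11) became 0.82 (SE 0.97) without that library. NCBP2 had 419, 428 and 293 input reads in shMETTL1 cells and 490, 308 and 320 in shscramble cells, and QKI had 114, 132 and 157 in shMETTL1 cells and 207, 7 and 164 in shscramble cells. Scaling by library size alone moved the median log2 fold change of all gene IDs in the input to 0.22, against -0.04 with TMM. Under it the values of NCBP2 and QKI, with TMM at -0.29 and -0.00, were 0.03 and 0.12, so no direction is given for either.

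Set over the input in a fit of the 12 libraries, no member's AlkAniline-Seq difference stood out from its input difference. The edgeR interaction test called 0 of 8, beside 0.00777% of 12877 gene IDs. At an unadjusted p under 0.05 it counted 0 of 8, beside 8.35% of all IDs, and DESeq2 called 0. The interaction lay above 0 for 7 members, with a median of 0.75 on the log2 scale beside 0.24 over all IDs tested. BUD23 was the member below 0, at -1.06 (SE 0.91). For TRMT112 it was 0.66 (SE 0.47), for NCBP1 0.88 (SE 1.35) and for NCBP2 0.81 (SE 0.86). RNMT had the largest value with the largest error, 3.35 (SE 2.2, edgeR adjusted p = 0.73), on the few reads given above. Without shscramble replicate 2, 6 members lay above 0 with a median of 0.31, BUD23 was at -0.53 (SE 0.73), TRMT112 at 0.27 (SE 0.41), and DCP2, at 1.11 (SE 1.92) with it, was at -1.74 (SE 1.96).

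**Figure D4:**
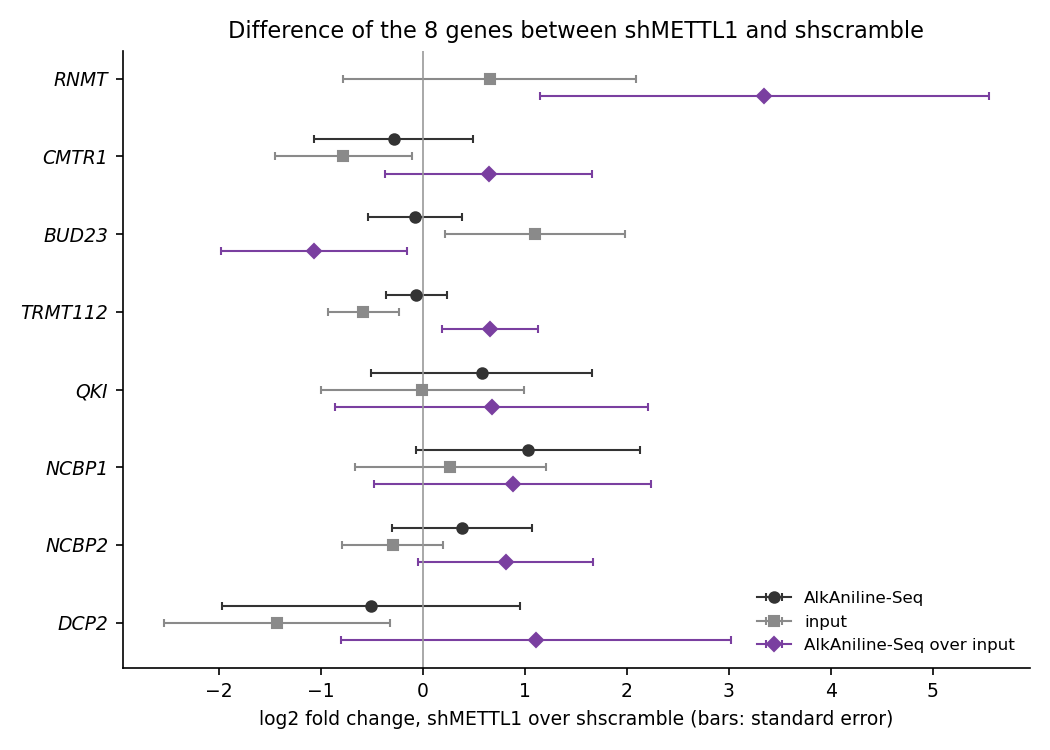
Log2 fold change of shMETTL1 over shscramble for the 8 members, with bars of 1 standard error, in AlkAniline-Seq (circles), in the input (squares) and as the interaction of AlkAniline-Seq over input (diamonds). RNMT has no AlkAniline-Seq point because it did not pass the filter. TRMT112 has the shortest bars and an AlkAniline-Seq value of -0.06, and no value passed the test.

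Within each group, AlkAniline-Seq was also set against the input of the same cells. In shMETTL1 cells 0 of 8 members were called by edgeR, beside 0.21% of gene IDs, and DESeq2 called 0. TRMT112 was the 1 member at an unadjusted p under 0.05, where 8.27% of all IDs passed, with a log2 fold of 0.70 of AlkAniline-Seq over input (SE 0.33, edgeR adjusted p = 0.60). The fold was above 0 in all 3 shMETTL1 replicates, at 0.65, 0.60 and 0.82. In the shscramble replicates it was 0.29, -0.70 and 0.56. No member reached an unadjusted p under 0.05 with DESeq2, or in edgeR with library size alone or without a filter. Without shscramble replicate 2, edgeR counted 2 of 8, beside 1577 of 13479 gene IDs. As a share of coverage TRMT112 in shMETTL1 cells was 3.31%, 3.42% and 4.16% in AlkAniline-Seq. In their input it was 3.89%, 3.09% and 2.97%. In shscramble cells edgeR called 0 of 8, beside 0.637% of IDs.

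In reads, BUD23 was the member with the highest AlkAniline-Seq level relative to input in both groups. In shscramble cells its log2 fold over input was 2.30 (SE 0.67, edgeR unadjusted p = 0.0024, adjusted p = 0.13), where 13.2% of all IDs had an unadjusted p under 0.05. By replicate the fold was 1.74, 1.53 and 0.23 in shMETTL1 cells and 2.13, 4.82 and 1.41 in shscramble cells, above 0 in 6 of 6. The share of coverage did not follow the reads. In shMETTL1 cells it was 7.42%, 10.2% and 6.78% in AlkAniline-Seq and 11.0%, 11.1% and 11.2% in the input, lower in each replicate. In shscramble cells it was 7.20%, 10.3% and 11.8% in AlkAniline-Seq and 10.2%, 0.43% and 6.39% in the input. There it was lower in replicate 1 and higher in replicates 2 and 3. DESeq2 called BUD23 in shscramble cells, the 1 member it called, at 2.35 (SE 0.64, adjusted p = 0.013), where it called 4.42% of all gene IDs. The value of 4.82 rests on the 11 input reads of shscramble replicate 2, and without that replicate the log2 fold was 1.76 (SE 0.59, edgeR adjusted p = 0.39). In shMETTL1 cells it was 1.24 (SE 0.65, edgeR adjusted p = 0.65), and the interaction of -1.06 given above is the test of the difference between the groups, which it did not pass.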

How the data were processed

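The authors deposited, for each replicate, raw counts of reads at each of 842183 positions and the coverage there, the fraction (count over coverage), and the ratio of the AlkAniline-Seq fraction to that of the input. Named in the submitters' processing notes are hg19 and the tools Bowtie2 2.2.4, cutadapt 1.9.1 and bedtools 2.24. How each was set, and which annotation gave the gene IDs, is not given in the sources used here. Counts were summed per gene ID, and positions were matched between tables by row order, with the same gene ID in every row.

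The quasi-likelihood test of edgeR 4.0.16 (R 4.3.3, TMM, minimum count 10, minimum total 15) was run over all gene IDs or positions, with Benjamini-Hochberg adjustment and a threshold of 0.05. SE is the log2 fold change divided by the root of F. The comparison over input was an interaction term in a fit of 12 libraries, which did not pair the AlkAniline-Seq and input libraries of a sample. DESeq2 1.42.0 and limma 3.58.1 (log2 of the deposited ratio plus a pseudocount of 1) were alternatives, and each was run on the same filtered features. Shares of coverage were compared by exact permutation, computed with numpy 2.4.6. The scripts were tested on simulated counts. Calls were required there only for genes, at large folds and at a spread below that of these data. That check therefore does not say which differences could be found here. Coefficients of variation between replicates estimated by edgeR were 0.90 for genes and 1.42 for positions in AlkAniline-Seq.

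All 8 genes are named. Positions named are the most read of each gene and, of those read in all 6 AlkAniline-Seq libraries, up to the 3 with the most reads. NCBP2 position 3, TRMT112 positions 13 and 17, and the further positions of RNMT, QKI, NCBP1 and DCP2 were chosen after their values were seen. Members, lists and tests were chosen with earlier results of these data known, though no measured value was used to pick the members. Other genes of the pathway, cell type markers and genes of like pattern were not looked up here, since 0 of the 59792 genes in the reference table carry an Ensembl ID. The study states in general terms that its replicates were biological. The labels do not say whether these samples were separate cultures, so p-values measure the spread between these samples, which may be technical.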

Additional observations from a re-analysis of the deposited data

How the results depend on the processing

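No member was called at the level of the gene, in AlkAniline-Seq, in the input or in the interaction, under any alternative run. DESeq2 called 1 member in shscramble AlkAniline-Seq over input (BUD23, 2.35) and 1 position (TRMT112 position 13, -5.42). Leaving out 1 library at a time gave 0 to 4 called positions of the members, and the 4 came without shscramble replicate 3, when 5644 of 29677 positions were called in all. The number of members whose AlkAniline-Seq shares of coverage did not overlap was 0, and 0 to 3 with a library left out. With fewer libraries groups overlap less easily, and the share over all gene IDs was not computed for that setting. The counts with a library left out are therefore not read as a result about the members. In the input the BUD23 share did not overlap, summed or as the mean over covered positions, but did with a coverage of at least 10. Depth and the spread between replicates limit RNMT, QKI, NCBP1 and DCP2 most.

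Same-numbered samples did not deviate together, with correlations between -0.03 and 0.05, so the replicate number was not used as pairing. In the fit of 12 libraries the block was instead the sample, pairing each AlkAniline-Seq library with its own input. The main fit left them unpaired, and their deviations correlated at -0.005 to 0.03. Neither block changed a call of a member. The blocks turned QKI in the input to 0.59, DCP2 over input to -2.50, BUD23 position 2 to -0.98 and QKI position 1 to -2.65. With the blocks 3 gene IDs were called in AlkAniline-Seq, 2 in the input and 1 in the interaction. A further 69 were called in shMETTL1 cells over input and 119 in shscramble cells over input, and 6 positions were called.

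Directions that turned with other settings all belonged to values that had not passed the test, and the cause was not tested. Without a filter BUD23 was 0.048 and TRMT112 0.056 in AlkAniline-Seq, BUD23 position 1 was -0.99 and position 2 was -0.38. With limma on the fold over input NCBP1 was -0.0018 and QKI -0.19, and with the deepest position alone QKI was -0.0029. Library size alone gave 0.028 for NCBP2 and 0.12 for QKI in the input, and DESeq2 gave -0.048 for TRMT112 in shscramble cells over input. With 1 library left out, AlkAniline-Seq values ran from -0.36 to 0.21 for BUD23, -0.93 to 0.15 for CMTR1, -4.07 to 0.22 for DCP2, -0.39 to 1.04 for QKI and -0.16 to 0.13 for TRMT112. Input values ran from -2.01 to 0.82 for DCP2, -0.33 to 0.63 for NCBP1, -0.54 to 0.53 for QKI and -0.18 to 1.20 for RNMT. Values over input ran from -0.15 to 1.05 for CMTR1, -2.31 to 2.37 for DCP2 and -0.092 to 1.53 for QKI, and TRMT112 in shscramble cells over input from -0.24 to 0.42. Position values ran from -0.18 to 1.35 (BUD23 position 1), -1.91 to 1.58 (BUD23 position 2), -4.76 to 2.17 (QKI position 1), -1.26 to 0.19 (TRMT112 position 1) and -0.61 to 0.96 (TRMT112 position 3).

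Counts of calls over all features moved more. In AlkAniline-Seq the test called 1 gene ID, against 175 with DESeq2, 2 with library size alone, 19 without a filter, 3 with at least 10 reads in every library and 0 to 3 with a library left out. In the input it called 0, against 31 and 95 with DESeq2 and without a filter. Over input it called 1, against 97 and 31. In shMETTL1 cells over input 27 became 110 with DESeq2, 57 with library size alone, 104 without a filter and 103 with at least 10 reads in every library, and in shscramble cells 82 became 569, 64, 266 and 126. With a library left out these ran from 1 to 82 and from 17 to 75. DESeq2 called 693 of 13973 positions where edgeR called 0, 5 without a filter and 3 to 5644 with a library left out.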
